A study of Mus musculus with 6 samples.

Results

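The nuclear genes of oxidative phosphorylation were read in RNA of whole mouse aorta from 3 EC-Jag1KO and 3 wild-type libraries. They were taken by name from a table of 35275 genes: every protein-coding gene whose symbol begins with Nduf, Uqcr, Cox4, Cox5, Cox6, Cox7, Cox8 or Atp5, together with Sdha, Sdhb, Sdhc, Sdhd and Cyc1. This gave 93 genes, of which 36 belong to complex I, 7 are complex I assembly factors (Ndufaf1 to Ndufaf7), 4 belong to complex II, 9 to complex III, 20 to complex IV and 17 to complex V. Ndufa4 and its relative Ndufa4l2 were placed in complex IV, where the Ndufa4 protein is found, although their names are those of complex I. The EC-Jag1KO animals lack Jagged1, a ligand of Notch receptors, in endothelial cells, and the wild-type animals are their controls. Not given in the sources used here are the promoter that drives the deletion and the age, sex and strain of the animals. Nothing in the labels ties each library to an animal of its own, so p-values cover variation among these 6 libraries, which may be technical.

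Oxidative phosphorylation passes electrons from NADH through complex I, or from succinate through complex II, to coenzyme Q, on through complex III to cytochrome c, and through complex IV to oxygen. Complexes I, III and IV pump protons across the inner mitochondrial membrane, and complex V, the ATP synthase, uses the returning protons to make ATP. Complex II is encoded entirely in the nucleus, while the other complexes combine nuclear subunits with a few encoded by mitochondrial DNA. Complex IV also has subunit isoforms that belong to heart, skeletal muscle and brown fat. In the vessel wall smooth muscle carries these complexes at a moderate level, and the fat around the mouse thoracic aorta, which is brown-like, is rich in them.

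The values were FPKM, fragments scaled by gene length and by the assigned fragments of the library, on 19889910 to 25914325 reads in genes per library. Jag1, the targeted gene, had 13.5, 9.42 and 19.6 FPKM in the EC-Jag1KO libraries, against 9.86, 10.6 and 16.9 FPKM in the wild-type libraries. Jag1 is also made outside the endothelium, and the level in whole tissue is therefore no check of the deletion. Smooth muscle markers summed to 11574 to 13844 FPKM in the EC-Jag1KO libraries and to 13929 to 14626 FPKM in the wild-type libraries, and all 7 were present, as were all 7 endothelial markers. In the fit described below, 6 of the 7 smooth muscle markers were lower in EC-Jag1KO, with a median log2 fold change of -0.23. At an unadjusted p under 0.05 (limma) 2 of them were lower, where 3.46% of all genes were, and 0 passed the adjusted threshold. Of the endothelial markers 5 were higher and 2 lower, with a median of 0.19. The cause of these differences was not tested. Xist and the Y-linked genes marked replicate 3 of each group as female and the other 4 libraries as male. Brown adipocyte markers summed to 347, 207 and 244 FPKM in the EC-Jag1KO libraries, against 243, 33.4 and 438 FPKM in the wild-type libraries. In bulk tissue, fewer cells of a type and less RNA per cell cannot be told apart.

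Of the 93 genes, 90 reached 1 FPKM on average and were tested. The other 3 are isoforms of complex IV subunits: Cox7b2 and Cox8c, known from testis, were listed at 0 in every library. Cox6a2, the isoform of heart and skeletal muscle and brown fat, had 0, 0.84 and 0 FPKM in the EC-Jag1KO libraries, against 0.45, 0 and 1.24 FPKM in the wild-type libraries. The tested genes held from 26 reads, in Cox4i2, to 23977 reads, in Atp5b, so counting noise bears on Cox4i2 far more than on the abundant subunits. Together the 93 genes took 0.978%, 0.920% and 0.647% of the reads of EC-Jag1KO replicates 1, 2 and 3, against 0.757%, 0.599% and 0.882% in wild-type replicates 1, 2 and 3. EC-Jag1KO replicate 3 and wild-type replicate 2 were thus the low libraries of their groups, and the groups overlapped.

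FPKM is scaled by the listed gene length, so levels set side by side between genes depend on that length. Listed lengths reached 4715 bases in Atp5g1, 4435 in Ndufb7, 3479 in Ndufab1 and 3038 in Cox6c. Whether they match the transcripts present was not tested, so the order of levels is approximate. The median of the mean levels was 108 FPKM in complex III, 92.2 in complex V, 74.3 in complex IV (over its tested genes), 71.9 in complex II and 52.6 in complex I. The assembly factors, which act during construction and are not part of the finished enzyme, had a median of only 7.28 FPKM. The most abundant genes were Atp5b, the catalytic beta subunit of the ATP synthase, at a mean of 432 FPKM, and Cox6a1, the widely expressed form of complex IV subunit VIa, at 427 FPKM. Ndufb9 led complex I at 164 FPKM, Uqcr10 complex III at 144 FPKM and Sdha complex II at 118 FPKM. Ndufb2 had the lowest level of any complex I gene, at 1.34 FPKM, with a listed length of 4371 bases. It held 111 to 191 reads a library, and its listed span overlaps those of Adck2, Braf and Gm16272. Its level is therefore uncertain.

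The sequence upstream of the start site was examined because the genes moved together from library to library, as described below, and 5 promoters are shown. They are those of Cox6a1, the most abundant gene of complex IV, of Atp5k and Uqcr11, which had the lowest values in EC-Jag1KO replicate 3 relative to the other EC-Jag1KO libraries, and of Cox7a1 and Cox8b, the isoforms of muscle and brown fat. Each is the 250 bases before the RefSeq start site in GRCm38.p6, written 5′ to 3′ on the gene's own strand, at chr5:115348959-115349208 (minus strand) for Cox6a1, chr5:108434400-108434649 (minus) for Atp5k, chr10:80406822-80407071 (minus) for Uqcr11, chr7:30183921-30184170 (plus) for Cox7a1 and chr7:140900447-140900696 (minus) for Cox8b. Capitals mark matches, on either strand, to CGCATGCG, the palindromic core bound by NRF1, to CCGGAAG, the core bound by ETS factors such as GABPA, and to CCAAT, the core bound by NF-Y.
Cox6a1: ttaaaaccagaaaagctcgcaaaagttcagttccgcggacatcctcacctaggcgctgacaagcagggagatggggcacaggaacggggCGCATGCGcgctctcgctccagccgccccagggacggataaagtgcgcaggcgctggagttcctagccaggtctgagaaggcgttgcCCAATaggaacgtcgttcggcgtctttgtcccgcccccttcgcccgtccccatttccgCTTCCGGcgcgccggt
Atp5k: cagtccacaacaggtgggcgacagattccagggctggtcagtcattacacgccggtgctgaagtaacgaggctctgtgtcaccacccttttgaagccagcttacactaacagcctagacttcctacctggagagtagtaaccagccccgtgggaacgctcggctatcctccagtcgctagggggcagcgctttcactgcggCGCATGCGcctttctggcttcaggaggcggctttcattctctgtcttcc
Uqcr11: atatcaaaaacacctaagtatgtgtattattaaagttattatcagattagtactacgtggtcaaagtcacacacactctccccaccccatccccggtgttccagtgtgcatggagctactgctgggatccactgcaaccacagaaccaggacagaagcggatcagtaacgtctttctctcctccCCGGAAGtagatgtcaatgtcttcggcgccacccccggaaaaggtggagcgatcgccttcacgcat
Cox7a1: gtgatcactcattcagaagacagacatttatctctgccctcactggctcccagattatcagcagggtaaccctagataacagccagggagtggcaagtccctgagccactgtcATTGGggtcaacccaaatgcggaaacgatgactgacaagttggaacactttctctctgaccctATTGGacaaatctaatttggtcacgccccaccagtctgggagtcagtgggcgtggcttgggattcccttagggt
Cox8b: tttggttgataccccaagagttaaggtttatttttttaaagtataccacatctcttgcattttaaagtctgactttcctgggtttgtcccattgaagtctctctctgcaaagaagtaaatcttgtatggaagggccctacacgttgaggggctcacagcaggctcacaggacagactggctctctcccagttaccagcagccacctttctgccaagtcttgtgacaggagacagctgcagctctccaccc
Cox6a1 held an NRF1 core, an ETS core on the opposite strand and a CCAAT box, Atp5k an NRF1 core, Uqcr11 an ETS core, and Cox7a1 a pair of CCAAT boxes on the opposite strand. Cox8b held none of these letters.

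Of the 93 genes, 76 had a RefSeq promoter window, giving 82 windows of 250 bases. The NRF1 core was found in 8 of them (9.76%), those of Atp5g2, Atp5j, Atp5k, Atp5l, Cox6a1, Ndufa8, Ndufa11 and Ndufaf4, against 1.55% of all 32851 windows. The ETS core was found in 13 (15.9%), among them Uqcr11, Uqcrh, Sdhd, Ndufs3, Atp5l and Cox6b1, against 6.91% of all windows. AAGATGGCG, the core bound by YY1, was found in 2 (2.44%), those of Atp5j and Atp5sl, against 0.606%, and TCAAGGTCA, the site of the estrogen-related receptors, in 1 (1.22%), that of Atp5g3, against 0.387%. CCAAT was found in 35 (42.7%), against 33.8% of all windows. None of the 5 cores contains another, both strands were searched, and a match describes the sequence, not binding. The set of all windows also holds genes that were not tested here, so these shares are not set against expressed genes alone. A link between the letters and the movement from library to library was not tested.

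The comparison of EC-Jag1KO with wild-type aorta asks what loss of endothelial Jagged1 does to these genes in the vessel wall. Differences are log2 fold changes, EC-Jag1KO over wild-type, of log2(FPKM + 1) from limma fitted to all 12165 tested genes, and the threshold was an adjusted p of 0.05. No gene of any complex passed, as none did among all 12165 genes (0%); the smallest adjusted p was 0.665 among the 90 and 0.232 among all genes. At an unadjusted p under 0.05 the 90 genes gave 0 higher and 0 lower, where 4.25% of all genes were higher and 3.46% lower. No gene had all 3 EC-Jag1KO libraries above all 3 wild-type libraries, where 6.84% of all genes did. One gene, Ndufa11, had them all below, where 6.73% of all genes did. The fold changes themselves lay mostly above 0, in 67 of 90 genes (74.4%) against 50.0% of all tested genes, with a median of 0.14 against -0.00022.

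**Figure D1:**
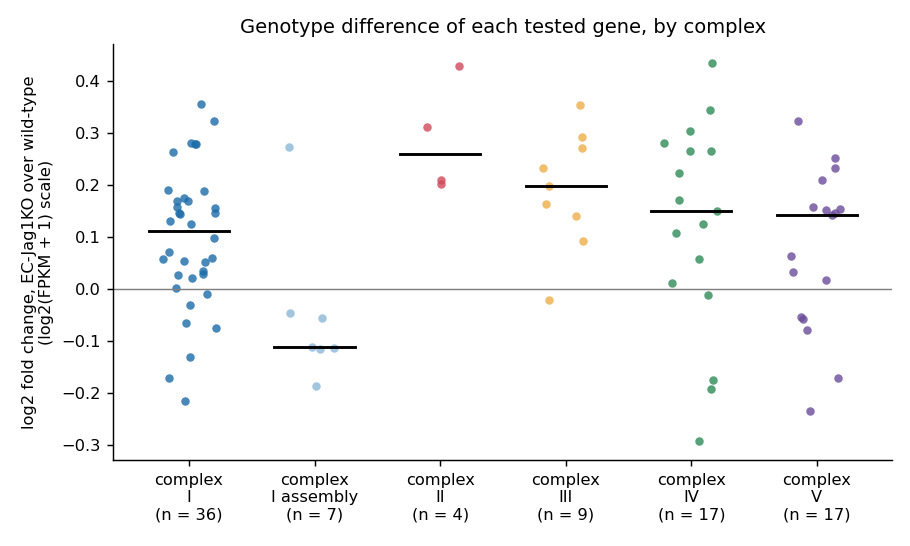
Log2 fold change of each tested gene (points; vertical axis, EC-Jag1KO over wild-type on the log2(FPKM + 1) scale) by complex, with the median of each complex as a bar. All 4 complex II genes lie above 0 (median 0.26), while 6 of the 7 complex I assembly factors lie below it (median -0.11); no point passed the adjusted threshold.

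By complex, the median log2 fold change was 0.26 in complex II, 0.20 in complex III, 0.15 in complex IV, 0.14 in complex V and 0.11 in complex I. The values ran from 0.20 to 0.43 in complex II, from -0.02 to 0.35 in complex III, from -0.29 to 0.44 in complex IV, from -0.23 to 0.32 in complex V and from -0.22 to 0.36 in complex I. Above 0 lay 4 of 4, 8 of 9, 13 of 17, 12 of 17 and 29 of 36 of their tested genes. The assembly factors of complex I stood on the other side, with a median of -0.11 and 1 of 7 above 0. Which library is left out decides these medians. Over all 90 genes the median was 0.36 without EC-Jag1KO replicate 3 and 0.25 without wild-type replicate 3, against -0.016, -0.015 and -0.011 without EC-Jag1KO replicate 1, EC-Jag1KO replicate 2 and wild-type replicate 2. Complex II stayed between 0.13 and 0.42 with any of the 6 left out, complex IV was at 0.005 without wild-type replicate 2, and complexes I and III lay below 0 in that setting (-0.032 and -0.025). The assembly factors were at 0.086 without EC-Jag1KO replicate 3. The difference between complexes was not tested.

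In complex I, the 7 core subunits, which hold the flavin and the iron-sulfur clusters, all had fold changes above 0, with a median of 0.19, and the 29 accessory subunits, which surround the core, had a median of 0.059 with 22 above 0. Ndufs1, the largest iron-sulfur subunit (chr1:63143596-63176833, minus strand, in mm10), had 38.9, 31.4 and 36.9 FPKM in the EC-Jag1KO libraries, against 32.4, 19.3 and 33.5 FPKM in the wild-type libraries. Wild-type replicate 2 was the low library and the groups overlapped. The log2 fold change was 0.36 (95% interval from -0.14 to 0.85, limma adjusted p = 0.747). In the table Ndufs1 overlaps other genes, and since no strand setting is given the reads of overlapping genes cannot be told apart; this applies to 23 of the 93 genes.

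Ndufv2, a flavoprotein subunit that carries an iron-sulfur cluster, had 70.2, 64.1 and 48.3 FPKM in the EC-Jag1KO libraries, against 50.8, 42.6 and 55.7 FPKM in the wild-type libraries. Replicate 3 was the lowest EC-Jag1KO library but the highest wild-type one, and the log2 fold change was 0.28 (95% interval from -0.11 to 0.67, limma adjusted p = 0.747). Ndufa9, an accessory subunit at the join of the matrix and membrane arms, showed the same order, with 65.7, 59.2 and 49.7 FPKM in the EC-Jag1KO libraries, against 49.3, 37.9 and 57.2 FPKM in the wild-type libraries, and a log2 fold change of 0.28 (limma adjusted p = 0.757). Ndufb9, the most abundant accessory subunit, had 211, 222 and 101 FPKM in the EC-Jag1KO libraries, against 153, 122 and 178 FPKM in the wild-type libraries. Here EC-Jag1KO replicate 3 lay below every wild-type library and the others of its group above them, so the log2 fold change of 0.17 averaged unlike libraries (95% interval from -0.55 to 0.89, limma adjusted p = 0.932).

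Ndufa11, an accessory membrane-arm subunit (chosen after its values were seen), was the gene whose groups did not overlap. It had 26.6, 26.5 and 19.8 FPKM in the EC-Jag1KO libraries, against 27.8, 26.7 and 27.3 FPKM in the wild-type libraries. The first 2 EC-Jag1KO libraries lay just under the wild-type range and replicate 3 well under it; the log2 fold change was -0.17 (95% interval from -0.47 to 0.13, limma adjusted p = 0.806).

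The assembly factors help build complex I and leave it afterwards. Ndufaf1, which acts on the early membrane-arm intermediate, had the smallest p of all 90 genes, with 8.96, 6.97 and 9.32 FPKM in the EC-Jag1KO libraries, against 6.61, 6.38 and 7.27 FPKM in the wild-type libraries. EC-Jag1KO replicate 2 lay within the wild-type range and the other EC-Jag1KO libraries above it, with a log2 fold change of 0.27 (95% interval from -0.02 to 0.57, limma unadjusted p = 0.0643, adjusted p = 0.665). Ndufaf3, the most abundant factor, had 17.1, 16.7 and 11.2 FPKM in the EC-Jag1KO libraries, against 14.1, 15.3 and 18.8 FPKM in the wild-type libraries, and a log2 fold change of -0.11 (limma adjusted p = 0.923). Ndufaf7, a methyltransferase, had 7.48, 7.25 and 6.08 FPKM in the EC-Jag1KO libraries, against 7.13, 6.95 and 8.72 FPKM in the wild-type libraries, a log2 fold change of -0.11. For Ndufaf3 and Ndufaf7 replicate 3 was again lowest in EC-Jag1KO and highest in wild-type. Other assembly factors outside the name rule, for complexes I to V, were higher in 23 of 34 tested genes with a median of 0.051, and 0 passed.

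Complex II, succinate dehydrogenase, is shared with the tricarboxylic acid cycle. Sdhb, its iron-sulfur subunit (chr4:140961203-140979193, plus strand, in mm10), had 114, 99.0 and 77.8 FPKM in the EC-Jag1KO libraries, against 71.7, 51.9 and 94.9 FPKM in the wild-type libraries. EC-Jag1KO replicates 1 and 2 were above every wild-type library and replicate 3 within the wild-type range, and the log2 fold change was 0.43 (95% interval from -0.12 to 0.98, limma adjusted p = 0.723). Sdha, the flavoprotein that oxidizes succinate, had 145, 124 and 120 FPKM in the EC-Jag1KO libraries, against 111, 78.9 and 128 FPKM in the wild-type libraries. Its EC-Jag1KO libraries lay close together and overlapped wild-type replicate 3, with a log2 fold change of 0.31 (95% interval from -0.12 to 0.75, limma adjusted p = 0.747). The membrane anchors Sdhc and Sdhd had log2 fold changes of 0.21 and 0.20. Wild-type replicate 2 was the lowest library in all 4 genes and EC-Jag1KO replicate 1 the highest.

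The tricarboxylic acid cycle list, which holds other enzymes of the same matrix pathway, summed to 1224, 1067 and 1108 FPKM in the EC-Jag1KO libraries, against 1029, 690 and 1161 FPKM in the wild-type libraries. Its median log2 fold change was 0.23 with 12 of 14 genes higher, and 0 passed. Ogdh, a subunit of the oxoglutarate dehydrogenase complex, had 109, 90.5 and 123 FPKM in the EC-Jag1KO libraries, against 93.9, 61.9 and 99.6 FPKM in the wild-type libraries. Wild-type replicate 2 was its lowest library and the groups overlapped.

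In complex III, Cyc1, the cytochrome c1 that hands electrons to cytochrome c, had 150, 127 and 101 FPKM in the EC-Jag1KO libraries, against 105, 68.1 and 128 FPKM in the wild-type libraries. The groups overlapped, with wild-type replicate 2 lowest, and the log2 fold change was 0.35 (95% interval from -0.22 to 0.93, limma adjusted p = 0.787). Uqcrc1, a core protein of the complex, had 137, 116 and 126 FPKM in the EC-Jag1KO libraries, against 111, 77.2 and 133 FPKM in the wild-type libraries, a log2 fold change of 0.27 (limma adjusted p = 0.800). Uqcrc2, its partner core protein, had 87.2, 70.7 and 73.6 FPKM in the EC-Jag1KO libraries, against 71.0, 52.2 and 80.7 FPKM in the wild-type libraries, a log2 fold change of 0.20. These core genes did not share the low value of the small subunits in EC-Jag1KO replicate 3. Uqcr10, a small subunit and the most abundant gene of the complex, had 199, 185 and 84.6 FPKM in the EC-Jag1KO libraries, against 139, 100.2 and 159 FPKM in the wild-type libraries. EC-Jag1KO replicate 3 was its lowest library, and the log2 fold change was 0.16 (95% interval from -0.62 to 0.95, limma adjusted p = 0.938).

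Complex IV, cytochrome c oxidase, reduces oxygen to water. Among its 11 widely expressed nuclear subunits 10 had fold changes above 0, with a median of 0.22, and EC-Jag1KO replicate 1 was above every wild-type library in all 11. Cox5a, a subunit of the matrix face (chr9:57521232-57532424, plus strand, in mm10), had 80.2, 75.6 and 37.3 FPKM in the EC-Jag1KO libraries, against 52.7, 28.1 and 60.6 FPKM in the wild-type libraries. It had the highest log2 fold change of the 90 genes, 0.44, and also a wide interval, from -0.42 to 1.29 (95%, limma adjusted p = 0.832), since EC-Jag1KO replicate 3 and wild-type replicate 2 were both far below the others. Cox4i1, the widely expressed subunit IV and a regulator of the enzyme, had 339, 336 and 212 FPKM in the EC-Jag1KO libraries, against 237, 203 and 289 FPKM in the wild-type libraries, and a log2 fold change of 0.27 (limma adjusted p = 0.830). Ndufa4, which completes the complex, had 298, 274 and 166 FPKM in the EC-Jag1KO libraries, against 213, 141 and 240 FPKM in the wild-type libraries, and a log2 fold change of 0.30 (limma adjusted p = 0.845). For each of these the first 2 EC-Jag1KO libraries were above the wild-type range and replicate 3 within it.

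Cox7a2l, a factor that joins complexes III and IV into supercomplexes, was the most even complex IV gene, with 73.1, 88.9 and 81.8 FPKM in the EC-Jag1KO libraries, against 78.7, 70.9 and 75.8 FPKM in the wild-type libraries. It was chosen after its values were seen. Cox6a1 had 554, 489 and 338 FPKM in the EC-Jag1KO libraries, against 421, 289 and 473 FPKM in the wild-type libraries, and a log2 fold change of 0.22. Cox8a, the widely expressed subunit VIII, had 424, 386 and 272 FPKM in the EC-Jag1KO libraries, against 337, 241 and 402 FPKM in the wild-type libraries, and a log2 fold change of 0.15. In both genes the groups overlapped and wild-type replicate 2 was lowest. The other subunits of isoform pairs, Cox6b1, Cox7a2 and Cox7b, had log2 fold changes of 0.28, 0.17 and 0.059.

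The tissue isoforms of complex IV varied most between libraries. Cox8b, the subunit VIII of heart, skeletal muscle and brown fat, had 82.1, 65.4 and 25.1 FPKM in the EC-Jag1KO libraries, against 74.2, 13.3 and 129 FPKM in the wild-type libraries. The wild-type libraries bracketed all EC-Jag1KO libraries, with wild-type replicate 2 lowest and wild-type replicate 3 highest, and the log2 fold change was 0.012 (95% interval from -1.88 to 1.91, limma adjusted p = 0.997). Cox7a1, the subunit VIIa of the same tissues, had 39.1, 43.2 and 17.1 FPKM in the EC-Jag1KO libraries, against 37.2, 6.56 and 53.2 FPKM in the wild-type libraries, with the same lowest and highest libraries and a log2 fold change of 0.34 (95% interval from -1.34 to 2.03, limma adjusted p = 0.940). Without wild-type replicate 2 these values became -0.92 for Cox8b and -0.52 for Cox7a1. Among isoforms of other tissues, Cox4i2, the oxygen-responsive subunit IV of lung, had 1.99, 3.77 and 1.37 FPKM in the EC-Jag1KO libraries, against 3.58, 2.71 and 1.96 FPKM in the wild-type libraries. Its groups overlapped and the log2 fold change was -0.19, beside -0.29 for Cox6b2, the testis form of subunit VIb, and -0.18 for Ndufa4l2, the hypoxia-induced relative of Ndufa4.

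The share of an isoform in its pair removes what both genes have in common. An effect of gene length can remain, since Cox7a1 has 364 and Cox7a2 754 bases, and Cox8b 362 and Cox8a 545. Cox7a1 made up 31.2%, 32.6% and 24.3% of Cox7a1 and Cox7a2 in the EC-Jag1KO libraries, against 36.4%, 10.3% and 40.8% in the wild-type libraries. The means were 29.4% ± 4.4 in EC-Jag1KO and 29.2% ± 16.5 in wild-type libraries (SD, n = 3 each), and the exact two-sided permutation test gave p = 1 (adjusted over 4 shares 1). This rests on wild-type replicate 2: without it the EC-Jag1KO mean differed from the wild-type mean by -9.25 percentage points, and all 3 EC-Jag1KO libraries were below both remaining wild-type libraries. Cox8b made up 16.2%, 14.5% and 8.43% of Cox8a and Cox8b in the EC-Jag1KO libraries, against 18.1%, 5.23% and 24.4% in the wild-type libraries, again with wild-type replicate 2 lowest (exact permutation p = 0.7, adjusted 0.933). Cox4i2 made up 0.779% ± 0.289 of Cox4i1 and Cox4i2 in EC-Jag1KO and 1.16% ± 0.43 in wild-type libraries (SD, n = 3 each, exact permutation p = 0.2, adjusted 0.8). Cox6a2 made up 0.0571% ± 0.0990 of Cox6a1 and Cox6a2 in EC-Jag1KO and 0.123% ± 0.132 in wild-type libraries, on at most 21 reads a library (exact permutation p = 0.7, adjusted 0.933). With 3 against 3 libraries this test cannot go below 0.1.

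Markers of brown fat had their lowest value in the same library as Cox7a1 and Cox8b. Ucp1, the uncoupling protein of brown fat, had 144, 63.6 and 85.2 FPKM in the EC-Jag1KO libraries, against 108, 8.74 and 263 FPKM in the wild-type libraries. Cidea, a lipid droplet protein of brown fat, had 140, 104 and 105 FPKM in the EC-Jag1KO libraries, against 102, 18.4 and 124 FPKM in the wild-type libraries. Both were lowest in wild-type replicate 2 and, unlike Cox7a1 and Cox8b, no lower in EC-Jag1KO replicate 3 than in EC-Jag1KO replicate 2. General adipocyte markers summed to 2286, 1830 and 967 FPKM in the EC-Jag1KO libraries, against 1538, 437 and 2488 FPKM in the wild-type libraries. Of 8 brown adipocyte markers 7 were tested, with 6 higher, 1 lower and 0 past either threshold, and a median log2 fold change of 0.83. Kcnk3, a potassium channel of brown fat, had 30.9, 19.8 and 21.5 FPKM in the EC-Jag1KO libraries, against 12.3, 1.72 and 17.8 FPKM in the wild-type libraries. Its groups did not overlap, and its log2 fold change was 1.49 (limma unadjusted p = 0.0561, adjusted p = 0.653). Ucp1 and Cidea were chosen after their values were seen. Zic1 was at or near 0 in every library. Cardiac markers summed to 18.6, 47.7 and 19.9 FPKM in the EC-Jag1KO libraries, against 16.3, 10.7 and 28.3 FPKM in the wild-type libraries, and skeletal muscle markers to 5.18 to 8.11 FPKM over all 6. Myh7, the slow myosin heavy chain of heart, had 3.55, 1.82 and 5.26 FPKM in the EC-Jag1KO libraries, against 0.0747, 0.147 and 0.699 FPKM in the wild-type libraries. Its groups did not overlap, with a log2 fold change of 1.75 (limma unadjusted p = 0.00077, adjusted p = 0.284), while Ryr2, the cardiac calcium release channel, had -0.50 (limma unadjusted p = 0.0393, adjusted p = 0.625). The part of fat or heart muscle in the values of the 93 genes was not tested.

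**Figure D2:**
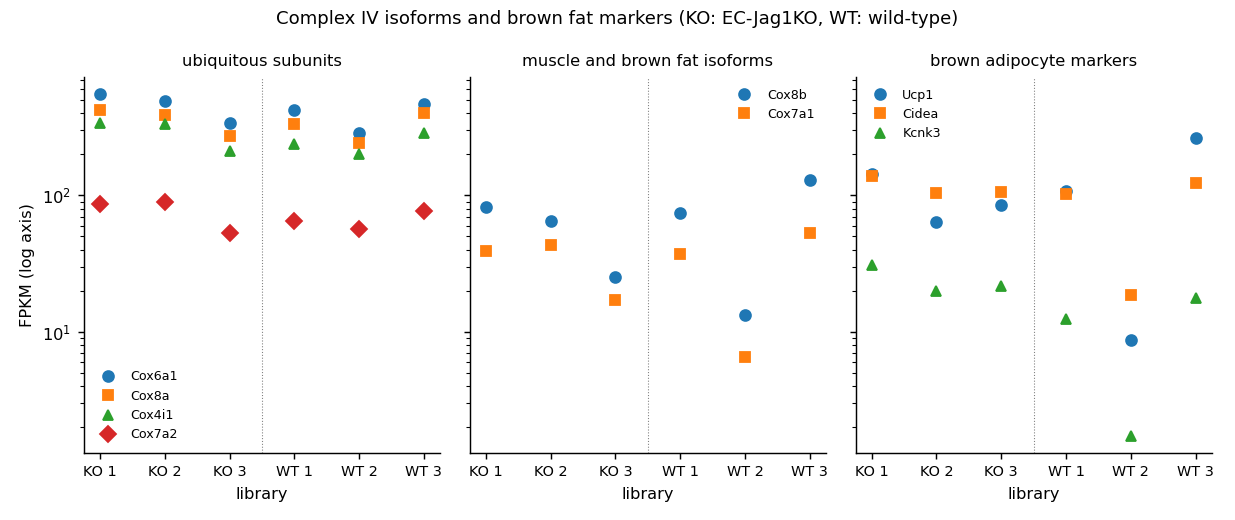
FPKM (vertical log axis) of widely expressed complex IV subunits, of the muscle and brown fat isoforms Cox8b and Cox7a1, and of 3 brown adipocyte markers, in each EC-Jag1KO (KO) and wild-type (WT) library. Wild-type replicate 2 is the lowest library for the isoforms and for the markers, down to 6.56 FPKM for Cox7a1 and 8.74 FPKM for Ucp1, while the ubiquitous subunits span a narrower range.

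In complex V, the F1 head carries out ATP synthesis, the c-ring turns with the proton flow, the peripheral stalk holds the head still, and small membrane subunits shape the dimer. All 5 F1 genes had fold changes above 0, with a median of 0.15. Atp5b had 523, 440 and 421 FPKM in the EC-Jag1KO libraries, against 414, 310 and 487 FPKM in the wild-type libraries, and a log2 fold change of 0.21 (95% interval from -0.23 to 0.65, limma adjusted p = 0.842). The groups overlapped, since wild-type replicate 3 was above EC-Jag1KO replicates 2 and 3. Atp5o, the stalk subunit that confers oligomycin sensitivity, had 93.0, 81.9 and 65.0 FPKM in the EC-Jag1KO libraries, against 65.8, 50.6 and 75.0 FPKM in the wild-type libraries. It had the highest log2 fold change of the complex, 0.32 (95% interval from -0.11 to 0.76, limma adjusted p = 0.736), with EC-Jag1KO replicate 3 just below wild-type replicate 1.

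Atp5f1, subunit b of the stalk, had 62.3, 57.3 and 46.1 FPKM in the EC-Jag1KO libraries, against 48.5, 39.4 and 52.4 FPKM in the wild-type libraries, and a log2 fold change of 0.23 (limma adjusted p = 0.774). Atp5l, subunit g of the membrane part, had 235, 235 and 136 FPKM in the EC-Jag1KO libraries, against 167, 147 and 179 FPKM in the wild-type libraries, and a log2 fold change of 0.25 (limma adjusted p = 0.842). In Atp5l EC-Jag1KO replicate 3 lay below every wild-type library and the other EC-Jag1KO libraries above them. The c-ring genes Atp5g1, Atp5g2 and Atp5g3, which encode the same mature protein, had log2 fold changes of -0.17, 0.018 and -0.057. Atp5s and Atp5sl, which carry the name but are not subunits of the synthase, had -0.23 and -0.078.

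The 12 tested mitochondrially encoded subunits, the partners of these nuclear genes, took 4.66%, 4.09% and 4.37% of reads in the EC-Jag1KO libraries, against 3.68%, 2.49% and 4.53% in the wild-type libraries. All 12 had fold changes above 0, with a median of 0.31, and 0 passed either threshold. Wild-type replicate 2 was the lowest library in 10 of the 12 and EC-Jag1KO replicate 3 in the other 2, mt-Nd4l and mt-Co2. Levels differed widely among the 12, with 26.7 to 48.7 FPKM for mt-Co2 against 6026 to 12286 FPKM for mt-Co1. Low levels were also listed for mt-Nd3, mt-Nd4l, mt-Co3 and mt-Atp6, and whether reads were lost in their assignment was not tested. EC-Jag1KO replicate 3 was the lowest of its own group in 9 of the 12, with a median deviation from each gene's mean of -0.027 on the log2 scale. Among electron carriers and coenzyme Q synthesis genes 13 of 17 were higher with a median of 0.18. Coq8a, a kinase-like protein of coenzyme Q synthesis, was past the unadjusted threshold only, with 40.3, 29.0 and 52.0 FPKM in the EC-Jag1KO libraries, against 24.6, 13.8 and 32.3 FPKM in the wild-type libraries (limma unadjusted p = 0.0404, adjusted p = 0.629). Adenine nucleotide, phosphate and outer membrane carriers had a median of 0.012.

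The genes of the 5 complexes moved together from library to library, and this variation was larger than the difference between the genotypes. As deviations from each gene's mean on the log2(FPKM + 1) scale, the medians over the 90 genes were 0.31, 0.27 and -0.39 in EC-Jag1KO replicates 1, 2 and 3, against -0.03, -0.33 and 0.17 in wild-type replicates 1, 2 and 3. The same medians over all tested genes lay within 0.03 of 0. The lowest library was EC-Jag1KO replicate 3 in 47 genes and wild-type replicate 2 in 42, together 89 of 90, against 42.6% of all tested genes. The highest was EC-Jag1KO replicate 1 in 43 genes and replicate 2 in 31, together 74 of 90, against 31.9% of all tested genes.

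**Figure D3:**
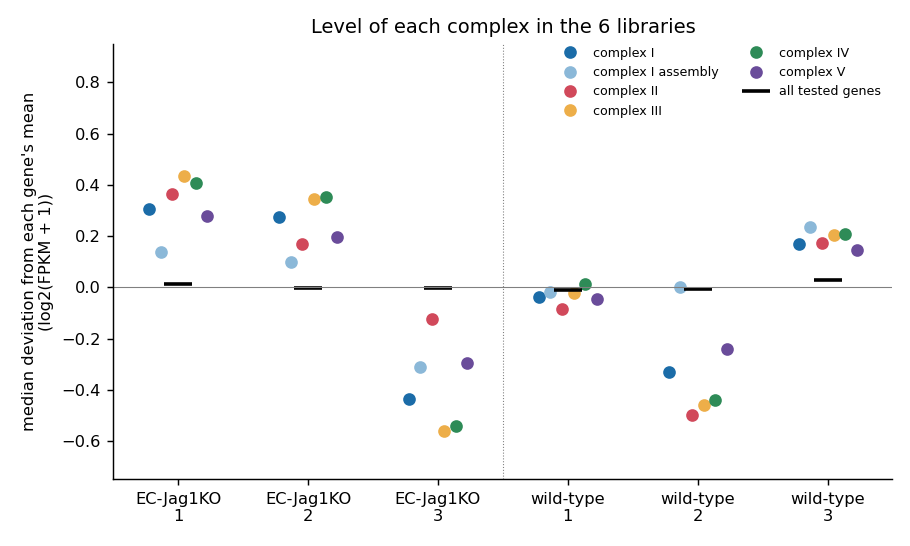
Median over the tested genes of each complex (coloured points) of the deviation from each gene's mean over the 6 libraries, in log2(FPKM + 1), with all tested genes as bars. Complexes I to V are high in EC-Jag1KO replicates 1 and 2, low in EC-Jag1KO replicate 3 (down to -0.56 in complex III) and low in wild-type replicate 2 (down to -0.50 in complex II).

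Taken as a whole, complex II differed from the other complexes in where it was low. Its median deviation was -0.12 in EC-Jag1KO replicate 3 and -0.50 in wild-type replicate 2, while complex III had -0.56 and -0.46, complex IV -0.54 and -0.44, complex I -0.44 and -0.33, and complex V -0.29 and -0.24 in these libraries. The assembly factors were low in EC-Jag1KO replicate 3 (-0.31) and at 0.00055 in wild-type replicate 2. Within complex I the core subunits were at -0.14 and the accessory subunits at -0.58 in EC-Jag1KO replicate 3, beside -0.40 and -0.28 in wild-type replicate 2. Within complex III the 2 catalytic subunits were at -0.11 and the other 7 genes at -0.70 in EC-Jag1KO replicate 3. In wild-type replicate 2 they were at -0.68 and -0.45. Being less low in EC-Jag1KO replicate 3 was thus not particular to complex II. Gene length, taken up below, also differed between these classes. These are medians of a few genes in single libraries and were not tested.

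EC-Jag1KO replicates 1 and 2 lay above every wild-type library in 69 genes (76.7%) and 55 genes (61.1%), against 29.2% and 28.4% of all tested genes. EC-Jag1KO replicate 3 did so in 3 genes (3.33%), against 32.1% of all tested genes. It lay below every wild-type library in 48 (53.3%), against 33.2% of all tested genes. In 31 of 90 genes both held at once, with EC-Jag1KO replicates 1 and 2 above and replicate 3 below all wild-type libraries, against 4.11% of all tested genes. The wild-type libraries took the same order, with replicate 2 lowest and replicate 3 highest, in 77 genes (85.6%), against 23.9% of all tested genes. With EC-Jag1KO replicate 3 left out, 31 of the 90 genes were higher at an unadjusted p under 0.05, where 5.09% of all genes were, and 0 passed the adjusted threshold. Without wild-type replicate 3 it was 5 genes, where 4.45% of all genes were. EC-Jag1KO replicate 3 was low in these genes and the genes moved together. The count of 31 without it therefore cannot be set fairly against the share of all genes.

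Replicate 3 of each group was the female library, and the genotype difference ran in opposite directions within the sexes. In the males, 86 of 90 genes lay above 0, against 6548 of all 12165 tested genes. Their median difference over the 90 genes was 0.50, from 2 EC-Jag1KO against 2 wild-type libraries. In the females, 1 EC-Jag1KO against 1 wild-type library, it was -0.56, with 87 of 90 below 0, against 54.1% of all tested genes. No p-value is given for the difference between the sexes, since the females give 1 library a group and so no spread of their own. Sdhb, for example, was higher in male EC-Jag1KO libraries (114 and 99.0 FPKM, against 71.7 and 51.9 FPKM) and lower in the female one (77.8 FPKM, against 94.9 FPKM). With the male libraries alone 64 of the 90 genes were higher at an unadjusted p under 0.05, where 7.02% of all genes were, and 0 passed the adjusted threshold. That setting also leaves out EC-Jag1KO replicate 3, so its count cannot be set fairly against the share of all genes either. With 1 female library a group, sex and library cannot be told apart, and both the sex reading and this comparison were made after the data were seen.

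The low values of EC-Jag1KO replicate 3 were lowest in short genes. Set against the mean of EC-Jag1KO replicates 1 and 2, its median difference was -1.09 in the 24 genes under 700 bases, -0.72 in the 21 genes from 700 to under 1000 bases, -0.47 in the 29 genes from 1000 to under 2000 bases and -0.35 in the 16 genes of 2000 bases and over. All tested genes showed the same order at smaller sizes, with -0.52, -0.41, -0.21 and 0.060. Across genes, which are not independent replicates, the difference had a Pearson r of 0.56 with log2 length in the 90 genes and of 0.41 in all 12165. Against the mean of the wild-type libraries, its median difference in the same 4 length groups was -0.62, -0.46, -0.15 and -0.16 in the 90 genes and -0.29, -0.30, -0.15 and 0.047 in all tested genes. From 1000 to under 2000 bases the 90 genes were thus level with other genes on this measure. Length and complex are linked, since the complex II genes are all over 1000 bases. Length is also linked to class. In complex III the catalytic genes have 1194 and 1363 bases, and Uqcr10, Uqcrb, Uqcr11 and Uqcrh 510, 565, 605 and 801. Uqcrq, Uqcrc1 and Uqcrc2 are longer, at 1521, 1655 and 1850 bases. In complex I the core genes run from 963 to 2661 bases and the accessory genes from 419 to 4435. The parts of length and of class in the low values were not tested.

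Atp5k, subunit e of the ATP synthase (563 bases), was the extreme, with 61.1, 102 and 11.9 FPKM in the EC-Jag1KO libraries, against 41.9, 35.9 and 47.5 FPKM in the wild-type libraries, a difference of -2.64 between EC-Jag1KO replicate 3 and the mean of the others. Uqcr11, a small subunit of complex III, had 143, 189 and 35.1 FPKM in the EC-Jag1KO libraries, against 85.1, 74.8 and 123 FPKM in the wild-type libraries, a difference of -2.20. Ndufa1 and Ndufa2, small accessory subunits of complex I, had differences of -1.98 and -1.84. At the other end Ndufaf1 (0.21), Atp5sl (0.12) and Ndufs1 (0.076) were above the mean of the other EC-Jag1KO libraries. These genes were chosen after their values were seen. With a smooth trend in gene length removed from every library, 4 of the 90 genes (Atp5o, Atp5l, Ndufv2 and Sdhb) were higher at an unadjusted p under 0.05, where 4.92% of all genes were, and 0 passed the adjusted threshold.

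**Figure D4:**
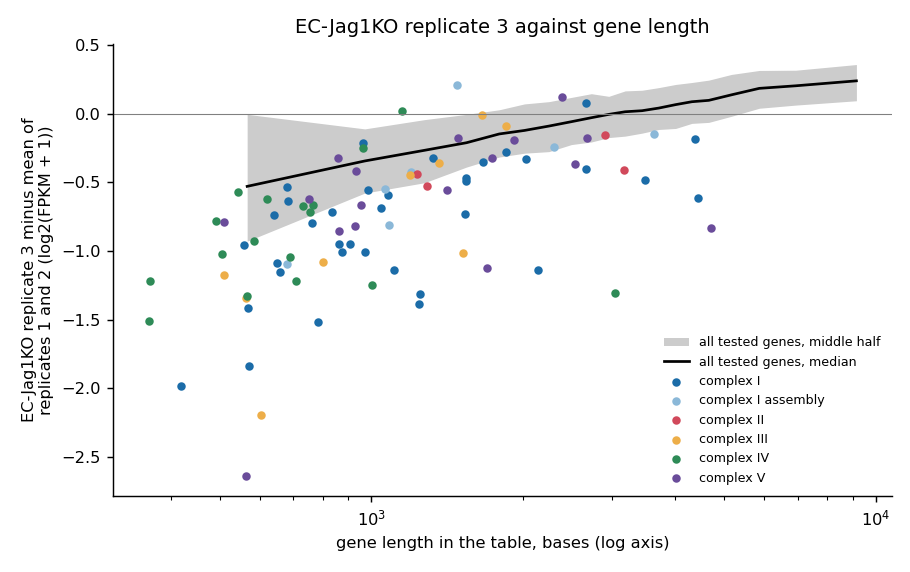
Difference between EC-Jag1KO replicate 3 and the mean of EC-Jag1KO replicates 1 and 2 in log2(FPKM + 1), against gene length in the table (log axis), for the 90 tested genes (points, by complex) and for all tested genes (line, median; band, middle 50% of genes). Most points lie below the line of all genes, the lowest being Atp5k at -2.64.

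Wild-type replicate 2 was the other low library. Set against the mean of wild-type replicates 1 and 3, the largest differences were -2.79 in Cox8b and -2.59 in Cox7a1, followed by -0.98 in Cox5a, -0.82 in Cox6b1 and -0.81 in Uqcrfs1, the Rieske iron-sulfur protein of complex III. The first 2 are the isoforms of muscle and brown fat. Cox8b, Cox7a1, Cox5a and Cox6b1 were also low in EC-Jag1KO replicate 3, by differences of -1.51, -1.22, -1.04 and -1.02 from the mean of the other EC-Jag1KO libraries. These genes were named after their values were seen. In this library the difference had a Pearson r with log2 length of 0.31 in the 90 genes and of 0.14 in all tested genes. With wild-type replicate 2 and EC-Jag1KO replicate 3 both left out, 24 of the 90 genes were higher at an unadjusted p under 0.05, where 3.63% of all genes were, and 0 passed the adjusted threshold. Both libraries were chosen after they were seen to be low in these genes, so this count cannot be set fairly against that share.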

How the data were processed

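RNA of whole mouse aorta was sequenced in 3 EC-Jag1KO and 3 wild-type libraries, grouped by the labels. The authors deposited 1 table of FPKM values per gene and library, with coordinates, length and biotype per the file headers. The submitters' processing notes list STAR, HTSeq and edgeR without role or version and the build mm10; not given in the sources used here are the strand setting, annotation release and filters. The deposited FPKM values are whole multiples of 1 read: all 211650 (100%) lay within 0.05 of a whole number, which gives the depths. Unused per-sample columns numbered 0.

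Fold changes are differences of mean log2(FPKM + 1), which makes those of weakly expressed genes too small. The 12165 genes averaging 1 FPKM or more were fitted in limma 3.58.1 (R 4.3.3) by a two-sided test of genotype alone with an intensity trend, with Benjamini-Hochberg adjustment at 0.05. The 4 isoform shares were tested by exact permutation. Confidence intervals are at 95%. The limma fit was tested on simulated data. No count model was run as the main test, since the unit is FPKM; voom on the recovered reads was an added alternative, which called 0 genes.

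The members and the gene lists were chosen with earlier results of these data known. All 167 listed symbols were found in the table, 7 of them by identifier. The rule for naming took, in each complex and in the assembly factors, the most abundant gene and the 3 of smallest p (2 in complex II and the assembly factors), every complex IV isoform with its counterpart, and in each other list the 2 of smallest p; every other gene was named after its values were seen. One gene named by this rule is not reported here. Members with pseudogenes of their name in RefSeq (9: Ndufa12, Ndufab1, Ndufs5, Uqcrh, Cox5b, Cox7c, Atp5c1, Atp5k and Atp5l) are uncertain where reads could be shared. Promoter windows came from RefSeq (GRCm38.p6). Alternatives covered the pseudocount (0.1 and 0.01), the filter on low values, scaling, variance without the trend, array weights, the replicate number as a block and each library left out. Sex as a covariate, 2 further sets of libraries left out, removal of a lowess trend with gene length and voom were chosen after seeing the data. Figures used Python 3.11.15 and matplotlib 3.10.9.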

Additional observations from a re-analysis of the deposited data

Results flagged for a closer look

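The median difference between EC-Jag1KO and wild-type libraries over the 90 genes was 0.50 in the males and -0.56 in the females, because both male EC-Jag1KO libraries lay above both male wild-type libraries in the median of these genes while the female EC-Jag1KO library lay below the female wild-type one. No p-value is given for the difference between the sexes, and with 1 female library a group sex and library cannot be told apart.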

How the results depend on the processing

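Over all alternatives the 30 named tested genes gave 659 log2 fold changes, of which 618 kept their direction and their side of the adjusted threshold, 29 reversed and 12 passed it, all 12 with array weights. With each library left out in turn, the number of genes past the adjusted threshold ranged from 0 to 4 (4 without EC-Jag1KO replicate 1), and the members past an unadjusted p of 0.05 ranged from 0 to 31 higher (31 when EC-Jag1KO replicate 3 was left out, 5 for wild-type replicate 3 and 1 for EC-Jag1KO replicate 2) and from 0 to 1 lower. The median of the assembly factors ranged from -0.164 to 0.086. Over the same settings the log2 fold changes ranged from -0.47 to 0.033 for Cox4i2, from -0.68 to 0.017 for Cox6b2, from -0.52 to 0.90 for Cox7a1, from -0.15 to 0.47 for Cox7b, from -0.052 to 0.34 for Cox8a, from -0.92 to 0.68 for Cox8b, from -0.21 to 0.072 for Ndufaf3, from -0.029 to 0.53 for Ndufb9 and from -0.058 to 0.55 for Uqcr10. The differences in share ranged from -0.127 to 0.00373 percentage points for Cox6a2, from -9.25 to 5.99 for Cox7a1 and from -8.17 to 1.40 for Cox8b; on recovered reads the Cox7a1 difference was -0.529. Cox8b, near 0, was also at -0.0077 after median centring, at -0.0018 after quantile normalization and at -0.015 in voom.

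Array weights called 1647 genes, 23 of them members, put 61 members higher and 1 lower at the unadjusted threshold (where 19.5% and 15.2% of all genes were), and turned the assembly factors (median 0.15), Ndufa4l2 (0.17), Ndufaf3 (0.15) and Ndufaf7 (0.022) above 0; they put a weight of 14.7 on EC-Jag1KO replicate 1 against 0.259 to 1.61 on the others, and their estimate did not converge. Pairing of the samples by replicate number was not settled. The deviations of same-numbered libraries correlated at 0.0549, 0.0511 and -0.0496 over genes, and not every library correlated best with its own number. With 3 libraries a group such correlations cannot exclude pairing, and replicate 3 was female in both groups. With the replicate block 1 member, Ndufs1, was higher.

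Chosen after seeing the data, sex as a covariate left 1 gene past the adjusted threshold. Without both female libraries it was 2 genes, 64 members were higher, and the medians were 0.50 over all members, 0.50 in complex I, 0.18 in the assembly factors, 0.68 in complex III and 0.60 in complex IV, with Cox6b2 at 0.18, Ndufa4l2 at 0.025, Ndufaf3 at 0.18 and Ndufaf7 at 0.057. With wild-type replicate 2 and EC-Jag1KO replicate 3 both left out, 24 members were higher, the assembly factors had a median of 0.098, and Cox4i2 was at 0.037, Cox7a1 at -0.11, Cox8b at -0.41 and Ndufaf3 at 0.044. Removing the length trend gave 4 members. The cause of these changes was not tested. With 3 libraries a group and 1 female in each, differences of the size seen here, and effects of sex or of a library, cannot be told apart from the spread.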

Other observations

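Regulators of mitochondrial biogenesis had a median log2 fold change of 0.057, with 10 of 13 tested genes higher and 0 past either threshold. Ppargc1a, the coactivator PGC-1 alpha, had 4.46, 1.83 and 3.53 FPKM in the EC-Jag1KO libraries, against 1.27, 0.369 and 3.22 FPKM in the wild-type libraries, and its relative Ppargc1b had 3.71, 2.93 and 4.10 FPKM in the EC-Jag1KO libraries, against 2.26, 0.903 and 3.47 FPKM in the wild-type libraries. Both were lowest in wild-type replicate 2, as were most complex II and IV genes, and neither was low in EC-Jag1KO replicate 3. Of the factors named for the promoter letters, all chosen after their values were seen, Gabpa had 8.83, 7.79 and 9.87 FPKM in the EC-Jag1KO libraries, against 8.52, 9.18 and 9.20 FPKM in the wild-type libraries, and Yy1 had 27.7, 23.7 and 27.4 FPKM in the EC-Jag1KO libraries, against 24.7, 28.2 and 27.6 FPKM in the wild-type libraries. Esrra, an estrogen-related receptor, varied more, from 18.8 to 26.7 FPKM in the EC-Jag1KO libraries and from 17.9 to 27.4 FPKM in the wild-type libraries. Nrf1, Gabpa, Yy1 and Esrra had log2 fold changes of 0.037, -0.025, -0.034 and 0.018. Tfam, which packages mitochondrial DNA and was chosen in the same way, had 0.059.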
